A study of Mus musculus with 14 samples.

Results

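A set of 8 genes of cholesterol synthesis and its control were followed through the colon epithelium of mice with and without the transcription factor Smad4, on water and after dextran sulfate sodium (DSS). The genes were Srebf2, Hmgcs1, Idi1, Fdps, Fdft1, Sqle, Lss and Insig1. They were chosen as members of the pathway switched on by SREBP2, and 7 of the 8 were found by their gene identifiers among the 37680 genes of the count table. The transcript level of Hmgcs1 is not analysed here. All 7 passed the filter on low counts, which asked for 10 or more counts in 3 or more libraries and kept 15127 genes.

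Poly(A) RNA-seq had been done on epithelium freed from the whole colon of adult mice with EDTA. The 4 groups were wild-type (WT) mice on water (4 libraries), Smad4 knockout (KO) mice on water (4 libraries), WT mice given 2.5% DSS in the drinking water for 3 d (3 libraries) and Smad4 KO mice given the same DSS (3 libraries). The study's figure legends give 4 replicates for WT on water and 3 for each other group. The 4 libraries labelled KO on water are all used here. In the KO mice, floxed Smad4 is removed by a tamoxifen-inducible Cre recombinase under the villin promoter, which is active in intestinal epithelial cells and not in the mesenchyme. DSS is a sulfated polysaccharide that injures the colonic lining.

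Cells make cholesterol from acetyl-CoA through the mevalonate pathway and take it up from lipoproteins. SREBP2, the product of Srebf2, is held in the endoplasmic reticulum while sterols are plentiful. When sterols fall, its escort protein carries it to the Golgi, where proteases free the part that enters the nucleus and switches on the genes of synthesis and uptake, its own gene among them. In the colon, whose epithelium is renewed within days, dividing cells need sterol for new membranes.

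Total counts ran from 12882827 to 26087231 per library. Mitochondrially encoded genes held 4.05% to 8.23% of the counts in 11 libraries and 30.6%, 32.8% and 21.4% in WT water replicates 3 and 4 and KO water replicate 4. Smad4 had 2434, 3188, 2694 and 2372 normalized counts in WT on water, and 741, 936 and 702 in KO water replicates 2 to 4. The library labelled KO water replicate 1 had 3164, within the range of WT. It stays in the group its label gives. Values without it are given for Idi1 and Sqle in KO against WT on water, and for counts of genes called. For the other genes they are not reported here, and the KO water values of those genes include it. After DSS, Smad4 had 3407, 3649.6 and 3493 normalized counts in WT and 878, 808 and 856 in KO. The library names carry letter prefixes (D, Z, MP, MS and ZH), whose meaning is not given in the sources used here. Markers of colonocytes and goblet cells were abundant in all libraries, while 4 adipocyte markers reached at most 5 counts in any library and Plin1 was at 0. Markers of other cells outside the epithelium were present. The highest count of a marker in any library was 473 for smooth muscle, 230 for lymphoid, 216 for fibroblast, 188 for myeloid and 36 for endothelial cells. A normalized count is the read count scaled by the TMM factors of edgeR to a common library size. Nothing in the labels ties each library to a separate mouse, so p-values measure the spread between these samples. In such bulk samples, fewer cells of a type and less RNA per cell cannot be told apart.

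The promoters of Srebf2, Insig1, Idi1 and Lss are shown because they are the measured genes of the set that were matched in the promoter table. They were taken from the RefSeq promoter table of GRCm38.p6, which holds 250 bases before and 50 bases after each start and matched 5 of the 8 genes, Hmgcs1 included. All 4 stretches lie on the + strand upstream of the start, and are written 5′ to 3′. Capitals mark CCAAT on the opposite strand (read here as ATTGG), the box bound by the factor NF-Y.
Srebf2 (chr15:82147096-82147175): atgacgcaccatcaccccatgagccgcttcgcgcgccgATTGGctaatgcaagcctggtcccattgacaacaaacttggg
Insig1 (chr5:28071162-28071241): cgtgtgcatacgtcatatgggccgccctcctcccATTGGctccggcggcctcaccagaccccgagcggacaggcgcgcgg
Idi1 (chr13:8885526-8885605): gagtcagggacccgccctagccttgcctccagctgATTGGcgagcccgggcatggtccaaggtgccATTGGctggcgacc
Lss (chr10:76531505-76531584): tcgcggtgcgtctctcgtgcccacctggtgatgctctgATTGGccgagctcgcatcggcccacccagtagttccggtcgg
CCAAT was found on either strand in 5 of the 5 promoters and in 37.4% of all 32851 promoters of the table. GGGCGG, the GC box, was also in 5 of 5, against 35.7%. The E-box CACGTG was in the Insig1 promoter, against 7.15% of all. CACNCCAC, the core of the sterol regulatory element consensus, was in the promoters of Insig1 and Hmgcs1, against 6.24%, and the longer TCACNCCAC, which contains that core, was in Hmgcs1, against 1.24%. These are exact matches, so a site that differs from a motif in a single base was not counted. They describe the letters in the windows and say nothing of binding.

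WT epithelium after 3 d of DSS had higher levels of all 7 genes than WT epithelium on water, with no overlap between the 4 water and the 3 DSS libraries for any of them. The log2 fold changes ran from 0.33 for Srebf2 to 1.12 for Idi1, with a median of 0.88, against a median of -0.01 over all 15127 genes tested. Groups without overlap and higher after DSS were found for 12.8% of all genes. None of the 7 passed an adjusted p of 0.05 in the edgeR quasi-likelihood model of all 14 libraries, in which 0% of all genes were called higher. At an unadjusted p under 0.05, 6 of the 7 passed, against 10.7% of all genes higher, and DESeq2 on the same libraries called 5 of the 7 (Sqle, Idi1, Fdps, Lss and Insig1) at an adjusted p under 0.05, against 2.66% of all genes higher. Over the 25 alternative fits, the adjusted p ranged from 0.00407 to 0.765 for Sqle, from 0.0148 to 0.813 for Idi1, from 0.0118 to 0.765 for Fdps, from 0.0128 to 0.765 for Lss and from 0.0459 to 0.82 for Insig1 (edgeR and DESeq2).

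On water, the KO epithelium had higher means of all 7 genes than WT, and Idi1 and Sqle passed the edgeR test at an adjusted p under 0.05. Called higher were 2 of the 7 genes, against 4.83% of all genes. The median log2 fold change of the 7 was 0.65, against -0.01 over all genes. None of the 7 had KO and WT water libraries without overlap in the higher direction, against 5.18% of all genes. DESeq2 called Lss and Insig1 as well, 4 of the 7, against 9.59% of all genes called higher. In an edgeR model of only the 8 water libraries, none of the 7 passed and 1 gene was called among all tested, with adjusted p of 0.152 for Idi1 and 0.163 for Sqle. Over the 25 alternative fits, the adjusted p ranged from 0.000224 to 0.159 for Idi1, from 0.00723 to 0.208 for Sqle, from 0.00713 to 0.377 for Lss and from 0.0165 to 0.418 for Insig1 (edgeR and DESeq2).

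After DSS, the KO and WT groups overlapped for every one of the 7 genes. Groups without overlap were found for 10.4% of all genes with KO higher and 11.4% with KO lower. The log2 fold changes of the 7 genes for KO against WT ran from -0.09 for Idi1 to 0.24 for Insig1, with a median of 0.01. None of the 7 was called by edgeR, where 0.00661% of all genes were called higher, and none passed an unadjusted p under 0.05, against 1.92% of all genes higher. DESeq2 called 0 of the 7 as well. The plot of normalized counts by library shows these 3 patterns gene by gene.

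**Figure D1:**
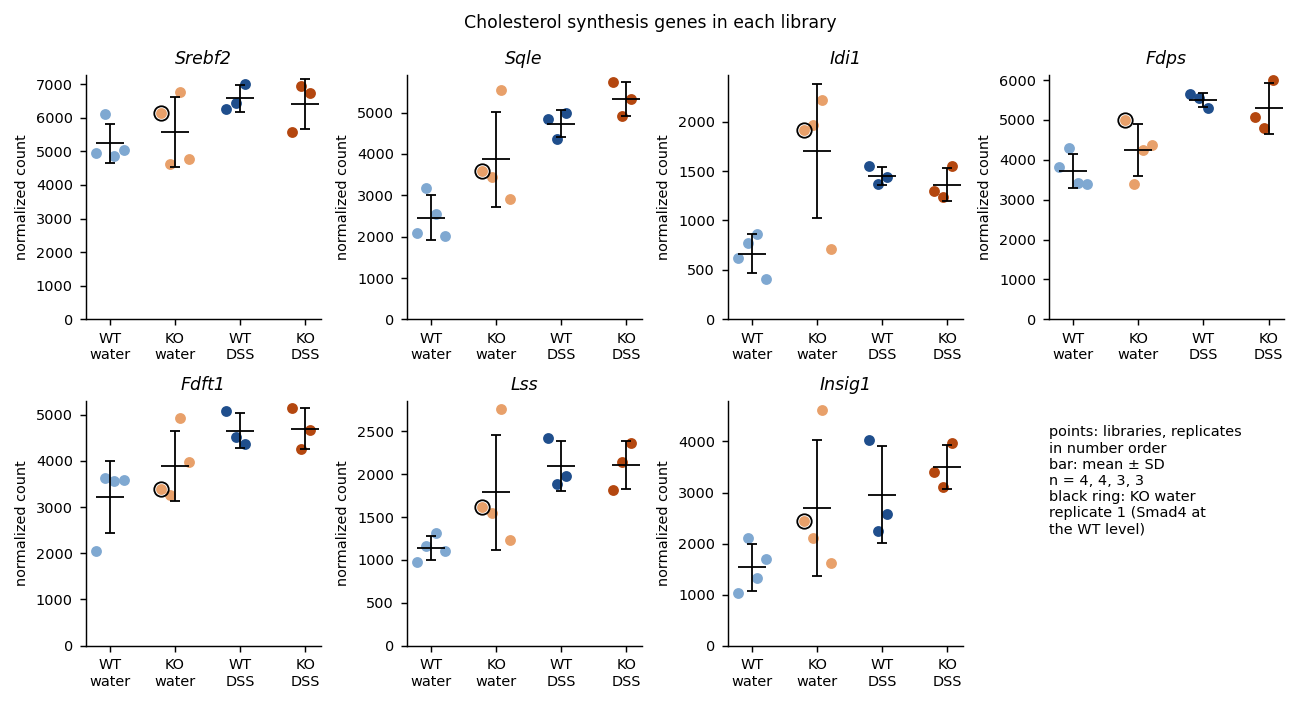
Normalized counts (vertical axes, starting at 0) of the 7 genes in each library of the 4 groups, with horizontal bars for the mean and vertical bars for 1 SD (n = 4, 4, 3 and 3). In every panel the 3 WT DSS points lie above the 4 WT water points. The KO water points have the widest range from lowest to highest, with Idi1 from 708 to 2218. For Fdft1 the SD is 777 in WT water and 765 in KO water.

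Srebf2, which encodes SREBP2 itself, had the smallest log2 fold changes of the 7 for DSS against water in WT and for KO against WT on water. Its normalized counts were 4947, 6103, 4857 and 5041 in WT water replicates 1 to 4 and 6152, 4629, 6756 and 4777 in KO water replicates 1 to 4. After DSS it had 6266, 6439 and 7008 in WT and 5563, 6937 and 6733 in KO. WT water replicate 2 came near the lowest WT DSS library, and the KO water libraries reached from below the WT water group into the WT DSS group. The log2 fold change was 0.33 ± 0.16 (standard error) for DSS against water in WT (edgeR adjusted p = 0.243) and 0.09 ± 0.15 for KO against WT on water (edgeR adjusted p = 0.712). Srebf2 lies on mm9 chromosome 15 from 81977696 to 82035806, with the microRNA gene Mir33 inside it on the same strand.

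Insig1 encodes the membrane protein that keeps the escort of SREBP2 in the endoplasmic reticulum, and is itself a target of SREBP2. It had 1033, 2103, 1322 and 1689 normalized counts in WT water replicates 1 to 4 and 2433, 2113, 4616 and 1615 in the KO water replicates. The DSS libraries had 4036, 2247 and 2578 in WT and 3410.2, 3118 and 3969 in KO. The lowest WT DSS library exceeded the highest WT water library by little, while KO water replicate 3 was the highest of all 14. DSS against water in WT gave a log2 fold change of 0.94 ± 0.31 (edgeR adjusted p = 0.135, DESeq2 adjusted p = 0.0459). KO against WT on water gave 0.81 ± 0.29 (edgeR adjusted p = 0.0809), and without KO water replicate 3 it was 0.42 (edgeR adjusted p = 0.318).

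Idi1 encodes the isomerase that converts isopentenyl diphosphate into dimethylallyl diphosphate, and had the widest range of the 7, 5.43-fold between the lowest and the highest library. It had 620.1, 768, 862 and 409 normalized counts in WT water replicates 1 to 4 and 1916, 1964, 2218 and 708 in KO water replicates 1 to 4. In the DSS groups it had 1549, 1367 and 1436 in WT and 1302, 1238 and 1550.2 in KO. KO water replicates 1 to 3 were above every WT water library, and KO water replicate 4 was among them. The mean rose from 665 ± 198 (SD, n = 4) in WT on water to 1702 ± 675 (SD, n = 4) in KO on water, a log2 fold change of 1.35 ± 0.28 (edgeR adjusted p = 0.0231). It was 1.29 without KO water replicate 1 (edgeR adjusted p = 0.0266). The call was lost without WT water replicate 4 (edgeR adjusted p = 0.072), KO water replicate 2 (0.0743) or KO water replicate 3 (0.0823).

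For DSS against water in WT, Idi1 had a log2 fold change of 1.12 ± 0.30 (edgeR adjusted p = 0.122). In KO it was -0.32 ± 0.30 (edgeR adjusted p = 0.829). Of the 7, Idi1 alone had a lower mean after DSS than on water in KO. The difference of the DSS responses, KO minus WT, was -1.44 ± 0.42 (edgeR adjusted p = 0.643). Without KO water replicate 4, it was -1.71 (edgeR adjusted p = 0.0432), and over the 23 alternative fits the adjusted p ranged from 0.0101 to 0.923. Idi1 lies on mm9 chromosome 13 from 8884852 to 8891641, and reads shared with its paralog Idi2 cannot be told apart from the count table.

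Fdps and Fdft1 act next in the pathway. Fdps makes farnesyl diphosphate, which also feeds protein prenylation, and Fdft1, squalene synthase, commits it to sterols. Fdps had 3811, 4286, 3412 and 3387 normalized counts in WT water replicates 1 to 4 and 4993, 3403, 4245 and 4374 in the KO water replicates. After DSS it had 5647, 5561 and 5304 in WT and 5084, 4786 and 6004 in KO. All 3 WT DSS libraries were above all 8 water libraries. DSS against water in WT gave a log2 fold change of 0.56 ± 0.15 (edgeR adjusted p = 0.122, DESeq2 adjusted p = 0.0118), and for KO against WT on water it was 0.19 ± 0.14 (edgeR adjusted p = 0.365). Per kilobase of exon, Fdps had the highest level of the 7, with group means from 151 to 223 CPM (normalized counts scaled to library size) per kilobase. Reads from processed copies of Fdps elsewhere in the genome may be counted on it or be lost.

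Fdft1 had 2043, 3635, 3565 and 3590.0 normalized counts in WT water replicates 1 to 4 and 3384, 3257, 4936 and 3969.7 in the KO water replicates. The DSS libraries had 5075, 4523 and 4367 in WT and 5143, 4261 and 4674 in KO. WT water replicate 1 stood far below the other 3 of its group, which lay close together. The log2 fold change for DSS against water in WT was 0.54 ± 0.19 (edgeR adjusted p = 0.149) with it and 0.37 without it (edgeR adjusted p = 0.209). KO against WT on water gave 0.28 ± 0.18 (edgeR adjusted p = 0.317). Fdft1, on mm9 chromosome 14 from 63763990 to 63796630, overlaps Ctsb on the other strand, and the strand setting of the counting is not given in the sources used here.

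Sqle, squalene epoxidase, catalyses a rate-limiting step of the pathway. It had 2076, 3186, 2553 and 2021 normalized counts in WT water replicates 1 to 4 and 3584, 3451, 5546 and 2920.1 in the KO water replicates. In the DSS groups it had 4834, 4361 and 4984 in WT and 5729, 4924 and 5321 in KO. The WT water libraries were the lowest, save that WT water replicate 2 exceeded KO water replicate 4, and all 3 KO DSS libraries were at or above the WT DSS median. The log2 fold change for KO against WT on water was 0.66 ± 0.19 (edgeR adjusted p = 0.0441). Without KO water replicate 1 it was 0.69 (edgeR adjusted p = 0.0531), and of the 14 models that left out 1 library each, 2 kept the call, those without WT water replicate 2 (0.0312) and without KO water replicate 4 (0.00723). DSS against water gave 0.94 ± 0.20 in WT (edgeR adjusted p = 0.114) and 0.46 ± 0.20 in KO (edgeR adjusted p = 0.568).

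Lss, lanosterol synthase, closes the sterol rings. It had 975, 1165, 1315 and 1109 normalized counts in WT water replicates 1 to 4 and 1616, 1549.9, 2767 and 1231 in the KO water replicates. After DSS it had 2428, 1887 and 1977 in WT and 1819, 2139.8 and 2365 in KO. KO water replicate 3 was the highest of all libraries and KO water replicate 4 lay within the WT water range. DSS against water in WT gave a log2 fold change of 0.88 ± 0.22 (edgeR adjusted p = 0.115, DESeq2 adjusted p = 0.0128), and KO against WT on water gave 0.65 ± 0.20 (edgeR adjusted p = 0.0544). Without KO water replicate 4 the latter was 0.81 (edgeR adjusted p = 0.00713), and without KO water replicate 3 it was 0.36 (edgeR adjusted p = 0.178). Per kilobase of exon Lss had the lowest level of the 7, with group means from 5.28 to 9.76, over an annotated exon length of 10787 bases. That length joins all annotated exons of the gene and can exceed that of a single transcript, so the rank may depend on it. A gene on the other strand, 4930483K19Rik, overlaps Lss.

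**Figure D2:**
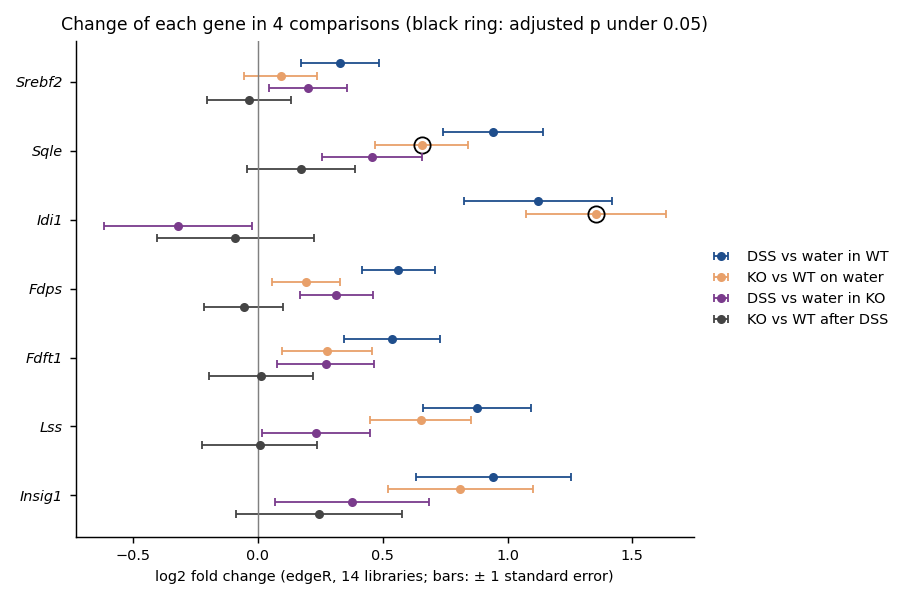
log2 fold changes (horizontal axis) of the 7 genes in 4 comparisons, fitted with edgeR on all 14 libraries, with bars of 1 standard error and black rings where the adjusted p was under 0.05. Idi1 (1.35) and Sqle (0.66) are ringed for KO against WT on water, and the values for KO against WT after DSS lie between -0.09 and 0.24.

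In the KO epithelium, the means of 6 of the 7 genes were higher after DSS than on water, and none passed the test. The 7 log2 fold changes for DSS against water in KO had a median of 0.27, against -0.02 over all genes, and ran from -0.32 to 0.46. The edgeR model called 0.0397% of all genes higher. Sqle and Fdps passed an unadjusted p under 0.05, 2 of the 7, against 3.83% of all genes higher. The difference of the DSS responses, KO minus WT, was negative for all 7, with a median of -0.48, and none was called by edgeR or DESeq2, against 0% of all genes called lower by edgeR. At an unadjusted p under 0.05, Idi1 passed, 1 of the 7, against 4.03% of all genes lower. The 2 DSS responses share no library, but the KO against WT comparison on water and the DSS response in WT share the 4 WT water libraries, so that a low value in those raises both.

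The libraries could be placed on 1 axis by the mean z score of the 7 genes over the 14 libraries. WT water libraries had scores from -1.58 to -0.41, KO water libraries from -0.70 to 1.02, WT DSS libraries from 0.48 to 0.91 and KO DSS libraries from 0.57 to 0.99. Among the water libraries, KO water replicate 3 reached the level of the DSS libraries. Over the 14 libraries, which share their group structure, Pearson correlations between pairs of the 7 genes ran from 0.47 (Fdft1 and Idi1) to 0.92 (Insig1 and Lss), with a median of 0.75. Of the genes in the pathway lists reported here, Hsd17b7, a later enzyme of the pathway, was the most alike to the score (r = 0.97). Outside the pathway lists, the 5 most alike were Klf7 (0.94), Kdm3b (0.93), Gpr125 (0.93), Celsr1 (0.93) and Smpd3 (0.93), over 14 libraries.

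**Figure D3:**
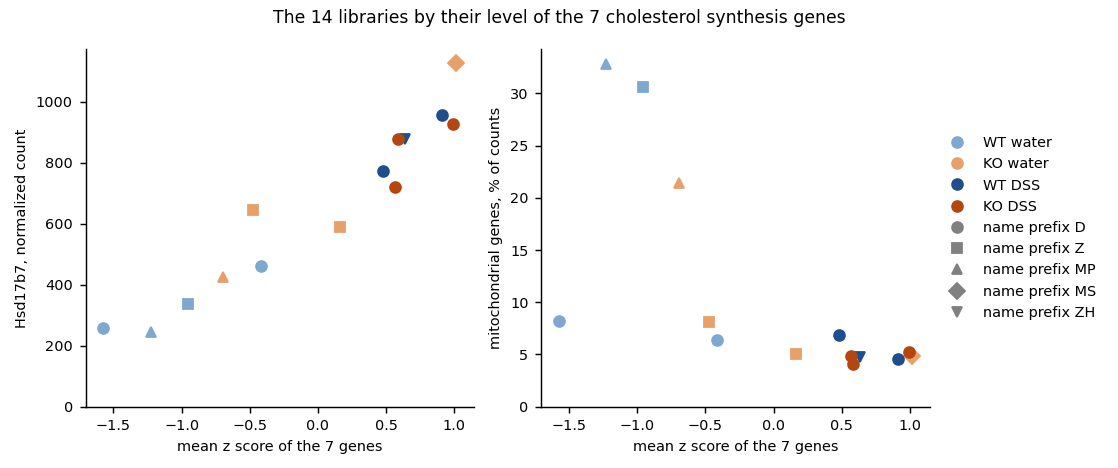
The mean z score of the 7 genes (horizontal axes) in each of the 14 libraries against the normalized count of Hsd17b7 (left) and the percentage of counts on mitochondrially encoded genes (right), coloured by group and shaped by the prefix of the library name. The WT water libraries lie at scores of -0.41 and below, and the 3 libraries above 20% mitochondrial counts lie at -0.70 and below.

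The mitochondrial share was unevenly spread over the groups. The 3 libraries with a share over 20% were all on water, 2 of them WT, and their scores were -0.96, -1.23 and -0.70. The WT water libraries with low shares, replicates 1 and 2, had scores of -1.58 and -0.41, and all 6 DSS libraries had higher scores. The part of the share in the scores was not tested. With the 3 libraries of high share left out, Idi1 had a log2 fold change of 1.07 for DSS against water in WT (edgeR adjusted p = 0.04) and 1.55 for KO against WT on water (edgeR adjusted p = 0.00103). Idi1 and Lss were then the called genes of the 7 on water, and the difference of the DSS responses for Idi1 was -1.64 (edgeR adjusted p = 0.0101). With the mitochondrial share as a covariate in the model of all libraries, none of the 7 was called in any comparison, and Idi1 had log2 fold changes of 1.05 for KO against WT on water and 0.75 for DSS against water in WT.

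The name prefix was also unevenly spread over the groups. WT water replicates 1 and 2, WT DSS replicates 1 and 2 and all KO DSS libraries carry D. Within D, the log2 fold changes for DSS against water in WT were 1.07 for Idi1 (edgeR adjusted p = 0.0487), 1.01 for Lss (0.0531), 1.00 for Insig1 (0.174), 0.80 for Sqle (0.1), 0.76 for Fdft1 (0.154), 0.47 for Fdps (0.156) and 0.20 for Srebf2 (0.548). No KO water library carries D. Within Z, KO water replicates 1 and 2 had 1916 and 1964 normalized counts of Idi1 against 862 in WT water replicate 3. Of these, KO water replicate 1 is the library with Smad4 within the range of WT. Within MP, KO water replicate 4 had 708 against 409 in WT water replicate 4. With the prefix as a block and KO water replicate 1 included, KO against WT on water was 1.01 for Idi1 (edgeR adjusted p = 0.00599) and 0.49 for Sqle (edgeR adjusted p = 0.0758).

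Levels of some cell type markers differed between the same groups. On water, the summed level of 7 colonocyte markers was 3337 to 4349 CPM in WT and 2136 to 2991 in KO. That of 7 fibroblast markers, of which 5 passed the filter, was 6.67 to 10.05 in WT and 10.7 to 32.8 in KO, and that of 5 myeloid markers, of which 4 passed the filter, was 4.38 to 9.77 in WT and 10.2 to 14.4 in KO. For WT on water against WT after DSS, 5 stem and crypt base markers summed to 102 to 144 and 44.5 to 77.5 CPM, and the 5 myeloid markers to 4.38 to 9.77 and 11.1 to 11.2. The 9 proliferation markers overlapped between these groups, with 708 to 938 on water and 701 to 904 after DSS. Between WT and KO after DSS, where each of the 7 genes overlapped, the stem and crypt base markers summed to 44.5 to 77.5 and 111 to 121 CPM. The colonocyte markers summed to 2895 to 3754 in WT and 2134 to 2821 in KO, and 6 goblet markers to 14735 to 15906 and 11883 to 12265. The proliferation markers overlapped there too, with 740 to 790 in KO. No marker of these lists was at 0 in all libraries. The part of these levels in the results was not tested.

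The other enzymes of cholesterol synthesis were followed as a list of 14, all of which were tested. On water, 3 of the 14 were called higher in KO by edgeR (Cyp51, Hsd17b7 and Sc5d), against 4.83% of all genes, and none lower, against 3.6%. The median log2 fold change of the list was 0.34, against -0.01 over all genes. In WT, 8 of the 14 had higher levels after DSS than on water without overlap, against 12.8% of all genes, and 4 were called higher by DESeq2 (the same 3 and Mvd), against 2.66%. The median there was 0.37, against -0.01 over all genes. Cyp51, the lanosterol demethylase, had 2922, 3597, 3043 and 3500.1 normalized counts in WT water replicates 1 to 4 and 4386, 5775, 5962 and 5140.3 in the KO water replicates. The DSS libraries had 5545, 5921 and 4619 in WT and 6303, 5134 and 6150.1 in KO. Every KO water library was above every WT water library, as for 5.18% of all genes, and so was every DSS library. KO against WT on water gave a log2 fold change of 0.70 ± 0.14 (edgeR adjusted p = 0.0214), against 0.72 ± 0.15 for DSS against water in WT (edgeR adjusted p = 0.114) and 0.13 ± 0.16 for KO against WT after DSS (edgeR adjusted p = 0.999).

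In KO against WT on water, Hsd17b7 had a log2 fold change of 1.09 ± 0.26 (edgeR adjusted p = 0.0309) and Sc5d, a late desaturase, 0.61 ± 0.16 (edgeR adjusted p = 0.0363). Hsd17b7 had 257, 463, 337 and 246 normalized counts in WT water replicates 1 to 4 and 588, 644, 1128 and 424 in the KO water replicates, of which replicate 4 lay within the WT range. Dhcr7, which makes the last step to cholesterol, had 0.14 ± 0.14 (edgeR adjusted p = 0.551). The correlation with the score over the 14 libraries was 0.80 for Cyp51, and was -0.15 for Mvk and 0.01 for Pmvk, the kinases early in the mevalonate pathway, which were looked up after their values were seen.

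**Figure D4:**
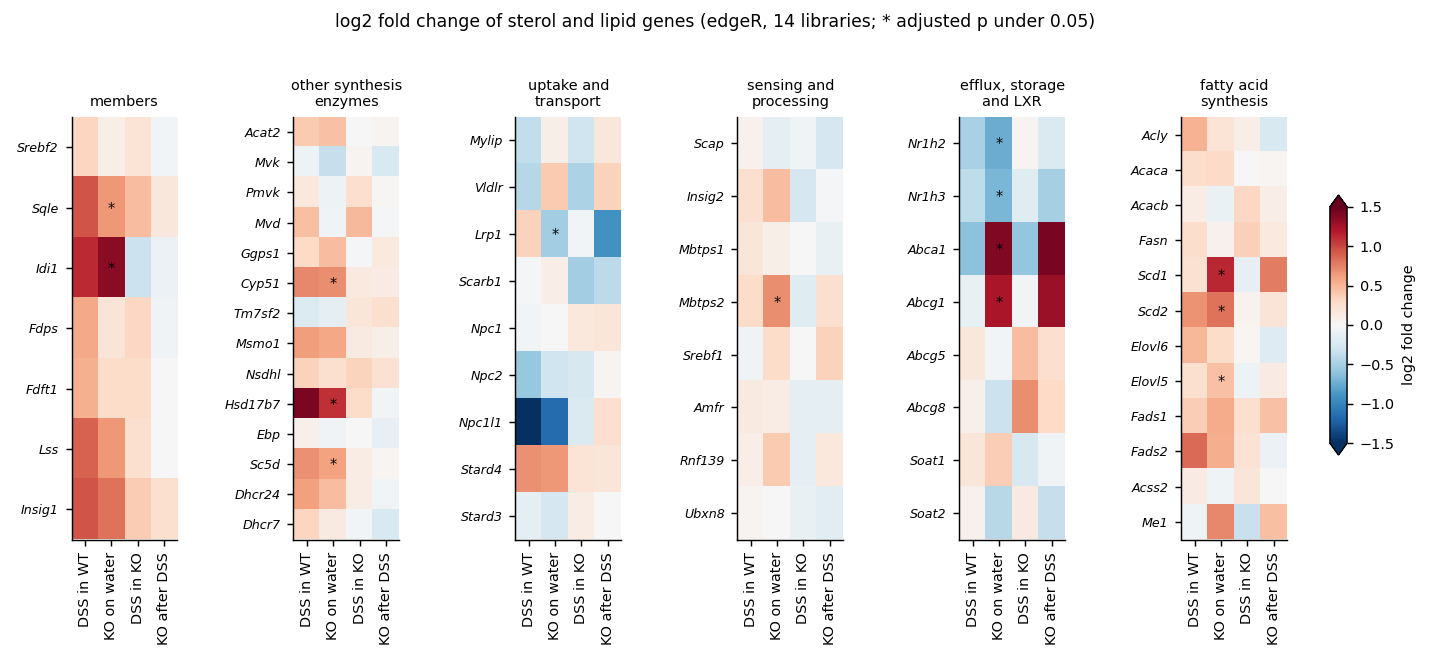
log2 fold changes (colour, from -1.5 in blue to 1.5 in red, with larger values at the end colours) of the 7 genes (headed members) and of 5 lists of sterol and lipid genes in 4 comparisons, fitted with edgeR on all 14 libraries, with a star where the adjusted p was under 0.05. Among the other synthesis enzymes, 3 of 14 carry a star for KO against WT on water, and no gene carries one for DSS in WT.

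Among 9 genes of uptake and transport, none was called higher and 1 lower in KO on water, against 3.6% of all genes called lower. In WT, 2 of the 9 (Lrp1 and Stard4) had higher levels after DSS than on water without overlap, against 12.8% of all genes, and the median log2 fold change was -0.14, against -0.01 over all genes. Stard4, a cytosolic sterol carrier, had 3235, 3864, 3253 and 2023 normalized counts in WT water replicates 1 to 4 and 5116, 5571, 5749 and 3009.9 in the KO water replicates. In the DSS groups it had 4923, 4912 and 5053 in WT and 5774, 5497 and 5583 in KO. KO water replicate 4 lay within the WT water range, and the 3 KO DSS libraries were above the 3 WT DSS libraries, as for 10.4% of all genes. Its log2 fold change was 0.68 ± 0.21 for DSS against water in WT (edgeR adjusted p = 0.127) and 0.65 ± 0.20 for KO against WT on water (edgeR adjusted p = 0.0531).

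The gene called lower was Lrp1, a large endocytic receptor. Lrp1 had 2765, 2979, 2372 and 2325 normalized counts in WT water replicates 1 to 4 and 2035, 1349, 2259.5 and 1648 in the KO water replicates. After DSS it had 3519.5, 3135 and 3297 in WT and 1579, 1797 and 1933 in KO. The KO libraries lay below the WT libraries on water, as for 5.21% of all genes, and after DSS, as for 11.4%. The log2 fold change for KO against WT was -0.52 ± 0.15 on water (edgeR adjusted p = 0.0469) and -0.91 ± 0.18 after DSS (edgeR adjusted p = 0.208), and in an edgeR model of only the 6 DSS libraries the adjusted p was 0.00611, where 0.416% of all genes were called lower.

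The machinery that senses sterols and cuts SREBP had 1 of 8 genes called higher in KO on water by edgeR, against 4.83% of all genes, and none lower, against 3.6%. Scap, the escort of SREBP2, had log2 fold changes of -0.13 ± 0.13 for KO against WT on water and 0.07 ± 0.14 for DSS against water in WT (edgeR adjusted p = 0.504 and 0.815). Mbtps2, the second protease that frees SREBP, had 0.70 ± 0.15 for KO against WT on water (edgeR adjusted p = 0.0244) and 0.28 ± 0.16 for DSS against water in WT (edgeR adjusted p = 0.336). Srebf1, which encodes the factor for fatty acid synthesis, had 0.28 ± 0.13 and -0.07 ± 0.14 (edgeR adjusted p = 0.171 and 0.814).

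Among 8 genes of sterol efflux, storage and their regulators, the liver X receptors, 2 were called higher in KO on water by edgeR, against 4.83% of all genes, and 2 lower, against 3.6%. Abca1, which hands cholesterol out of the cell and is switched on by liver X receptors, had 60, 71.9, 68.5 and 47.1 normalized counts in WT water replicates 1 to 4 and 216, 139.6, 222 and 76 in the KO water replicates. The DSS libraries had 55.2, 31.1 and 35.4 in WT and 132, 110.4 and 85.3 in KO. All KO libraries were above all WT libraries, at low counts. KO was higher without overlap for 5.18% of all genes on water and 10.4% after DSS. The log2 fold change of Abca1 for KO against WT was 1.39 ± 0.33 on water (edgeR adjusted p = 0.0298) and 1.43 ± 0.38 after DSS (edgeR adjusted p = 0.467). Its relative Abcg1 had 1.22 ± 0.29 and 1.29 ± 0.34 (edgeR adjusted p = 0.031 and 0.457), and in the model of only the 6 DSS libraries the adjusted p of Abcg1 was 0.0419, where 0.337% of all genes were called higher. The receptors themselves were the 2 called lower, Nr1h2 with -0.74 ± 0.17 and Nr1h3 with -0.69 ± 0.20 on water (edgeR adjusted p = 0.0294 and 0.0452). The summed level of fibroblast markers was 6.67 to 10.05 CPM in WT on water and 10.7 to 32.8 in KO, and 8.36 to 10.1 in WT and 14.1 to 21.4 in KO after DSS. That of myeloid markers was 4.38 to 9.77 in WT and 10.2 to 14.4 in KO on water, and 11.1 to 11.2 in WT and 9.48 to 10.9 in KO after DSS. The part of either in the levels of Abca1 and Abcg1 was not tested.

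Of 12 genes of fatty acid synthesis, 3 were called higher in KO on water by edgeR, against 4.83% of all genes, and none lower, against 3.6%. These were the desaturases Scd1, with a log2 fold change of 1.13 ± 0.23 (edgeR adjusted p = 0.023), and Scd2, with 0.82 ± 0.20 (edgeR adjusted p = 0.0327), and the elongase Elovl5, with 0.44 ± 0.11 (edgeR adjusted p = 0.0347). In the comparison of DSS with water in WT, Scd1 had 0.23 ± 0.25 and Scd2 0.67 ± 0.22 (edgeR adjusted p = 0.614 and 0.131). None of the genes in these 5 lists was called by the edgeR model of all 14 libraries for KO against WT after DSS, or for DSS against water in either genotype. After DSS, DESeq2 called Abcg1 higher in KO (adjusted p = 0.048), against 0.159% of all genes, and Lrp1 lower (adjusted p = 0.00138), against 0.178%. In WT, DESeq2 called Stard4 (adjusted p = 0.0431) and Scd2 (adjusted p = 0.0371) higher after DSS than on water, beside the 4 synthesis enzymes. It called Npc2, a carrier of cholesterol in lysosomes, lower (adjusted p = 0.0402), against 2.96% of all genes. In the edgeR model of only the 8 water libraries, none of the genes in these lists was called for KO against WT on water.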

How the data were processed

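Whole-number read counts per gene were deposited by the authors for 14 libraries, without normalization. Per the labels and the study's methods, reads were aligned to mm9 with HISAT2 and counted with featureCounts. The members, the gene lists and the tests were chosen with earlier results of these data known. The 15127 genes with 10 or more counts in 3 or more libraries entered the quasi-likelihood test of edgeR 4.0.16 (R 4.3.3) after TMM normalization, with 4 group means in 1 model of all libraries and Benjamini-Hochberg adjustment over all tested genes at 0.05. A normalized count is the count divided by its effective library size, times the mean effective size. Standard errors are the log2 fold change over the square root of its F statistic. Also run were DESeq2 1.42.0, fits of the compared groups alone, other scalings, no filter, blocks of replicate number or name prefix, the mitochondrial share as a covariate, and each library left out. A model of the 11 libraries with mitochondrial shares under 20% was chosen after the shares were seen. Scripts were tested on simulated counts.

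Genes named were the members, Stard4, Scap, Cyp51, Dhcr7, Srebf1 and Abca1, listed genes called (at most the 6 of smallest p per comparison, with the models of only the groups compared included), and the 5 genes in no list most correlated with the mean z score of log2 normalized counts (plus 1). Hsd17b7, Sc5d, Npc2, Mvd, Mvk, Pmvk, Scd2, Elovl5 and Nr1h3 were named after their values were seen. Further genes of the lists are not reported here. Positions and exon lengths are from GENCODE M1 on mm9, and each length joins all annotated exons of the gene. A gene symbol was found for 37310 of the 37680 genes. 14001 genes had no count in any library. Total counts limit the precision of single values, and replicates, not depth, set the error of the comparisons.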

Additional observations from a re-analysis of the deposited data

Results flagged for a closer look

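In the group of 4 WT water libraries, replicate 2 stood apart from the other 3 for Srebf2, with 6103 normalized counts against a group range from 4857. Replicate 1 stood apart for Fdft1, with 2043 normalized counts, below a group whose highest value was 3635. Both were marked by Dixon's test for a single outlying value, over 26 groups of 4 libraries from 13 genes, of which chance marks about 1 in 20 groups.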

How the results depend on the processing

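For KO against WT on water, 2 of the 7 genes were called in the model of all libraries. The number was 4 with DESeq2 or without the filter on low counts, 1 with the name prefix as a block, and 0 with the mitochondrial share as a covariate, in the model of only the 8 water libraries and in that model without KO water replicate 1. With 1 library left out it ran from 0 to 4. For DSS against water in WT, 0 genes were called in the model of all libraries, 5 with DESeq2, 3 without the filter, and 1 each within the prefix D and without the libraries of high mitochondrial share, and with 1 library left out the number ran from 0 to 4, with 2 without KO water replicate 3 and 4 without KO water replicate 4. For the difference of the DSS responses, the number was 0, and 1 without the libraries of high mitochondrial share, with a range from 0 to 1 when 1 library was left out. It was 0 under every alternative run for KO against WT after DSS and for DSS against water in KO. KO water libraries enter the comparison of DSS with water in WT only through the spread, scaling and gene filter that all libraries share. The part of each of these, and the cause of the other changes, was not tested.

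Counts over all genes for KO against WT on water moved with the setting as well, from 1276 in the model of all libraries to 2659 with DESeq2, 2977 with the replicate block, 2018 with the prefix block, 2382 without the libraries of high mitochondrial share, 814 with library totals, 8 with the mitochondrial covariate, 1 and 13 in the models of only the water libraries with and without KO water replicate 1, and 4 to 4104 with 1 library left out. For DSS against water in WT they were 0 in the model of all libraries, 851 with DESeq2, 138 without the filter, 40 within D, 35 without the libraries of high mitochondrial share and 535 without KO water replicate 4. For KO against WT after DSS they were 2, 51 with DESeq2 and 114 in the model of only the DSS libraries. For DSS against water in KO they were 10 and 70, and for the difference of the responses 1 and 8, in edgeR and DESeq2.

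The replicate block called 3 of the 7 genes for KO against WT on water (Idi1, Sqle and Lss). The numbers were not taken to pair the samples, since the deviations of same-numbered libraries had correlations from -0.07 to 0.32 over 13 pairs, of which 1 was over 0.1.

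Directions that turned were all of small values. In KO against WT after DSS, Srebf2 became 0.006 with library totals, 0.0132 with the prefix block and 0.0113 within D, and ran from -0.0951 to 0.0574 with 1 library left out. Fdps ran from -0.1571 to 0.0114 with 1 library left out. Fdft1 became -0.0325 with the prefix block and -0.0329 within D, and ran from -0.0587 to 0.0786 with 1 library left out. Lss became -0.0119 with the replicate block, -0.0336 with the prefix block and -0.0349 within D, and ran from -0.0834 to 0.1259 with 1 library left out. In KO against WT on water, Srebf2 became -0.0172 with the mitochondrial covariate, and ran from -0.0144 without KO water replicate 3 to 0.181 without WT water replicate 2. The other log2 fold changes of the 7 genes kept their direction under all alternatives run. Depth limits Abca1 and Abcg1, with at most 270 and 235 counts in any library, more than the 7 genes.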
